A study of Erigeron canadensis with 32 samples.

Results

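RAP2.7 (HW_424_g) and ZFP7 (HW_27793_g) are the *Erigeron canadensis* genes that were at or near 0 reads in water-sprayed leaves 1 h after treatment and were counted in every leaf sprayed with an auxin herbicide at that time. They make up 2 of the 54498 genes in the count table and were taken by their identifiers, with the best *Arabidopsis thaliana* hit of each predicted protein giving the name. Because the counts at 1 h after herbicide treatment (HAT) chose them, those counts are described here without a test. Tests were kept for 6 HAT, where other plants were sampled, although the values of that time were also known when the genes were picked.

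RNA-seq was carried out on leaves of greenhouse-grown, glyphosate-resistant horseweed rosettes kept under a long photoperiod. The plants received a spray of 2,4-D, dicamba, halauxifen-methyl or plain water, and surfactant was in every spray solution, water included. A single leaf was taken from each plant, with 4 plants per treatment and time at 1 and 6 HAT, which gave 8 groups and 32 libraries. 2,4-D is a phenoxyacetic acid, dicamba a benzoic acid and halauxifen-methyl an arylpicolinate ester, and each was applied at its own field rate, so that compound and dose cannot be told apart.

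All plants were labelled as the glyphosate-resistant biotype, so no susceptible plant stands beside them, and an untreated or unsprayed group was not analysed here. Total counts ran from 12588842 to 29111958 per library with a median of 18168133.5. Where a library had 0 counts, up to 3 remain possible, which is 0.113 to 0.284 CPM (counts scaled to the normalised library size) depending on the library, and this limit covers counting error only. In all, 25585 genes had 0 counts in every library. Leaf identity was checked with 16 genes that hit photosynthesis markers such as *LHCB3*, *RBCS1B* and *RCA*, whose summed level was 14394 to 169581 CPM. Of these 16 genes, 2 were at 0 in all 32 libraries. Of 24 genes with floral marker hits, 12 were at 0 in all 32, as were 13 of 23 with shoot meristem hits and 2 of 5 with root hits. Since 25585 of all 54498 genes were at 0 throughout, these counts do not set the floral, meristem and root lists apart. The summed root hits were 4.95 to 52.3 CPM. Dicamba 6 HAT replicate 3 stood apart in several genes of the AP2 family, and the main values that rest on it are given with and without it.

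Auxin herbicides mimic indole-3-acetic acid. The hormone joins TIR1/AFB F-box receptors to AUX/IAA repressors, the repressors are degraded, and auxin response factors then transcribe early genes such as the AUX/IAA, GH3 and SAUR families. RAP2.7, also called TOE1 in *A. thaliana*, is a euAP2 transcription factor with a pair of AP2 domains. There it holds back flowering, is a target of the microRNA miR172, and recruits TOPLESS corepressors. ZFP7 belongs to a plant family of C2H2 zinc finger factors with a single finger, in which relatives such as *ZFP5*, *ZFP6* and *GIS* direct trichome initiation and *KNU* ends the activity of the floral stem cells. Both names rest on protein similarity, and neither gene's role has been taken from horseweed.

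The predicted gene models differ widely. RAP2.7 lies on the plus strand of an 11090-base contig of the draft genome, from 1043 to 3795, in 11 coding exons that sum to 1254 bases and encode 417 residues. Its first exon holds 443 bases, and the gap before its last exon is only 20 bases. ZFP7 lies on the minus strand of a 10409-base contig, from 7067 to 7459, in 1 coding exon of 393 bases that encodes 130 residues. The models hold no untranslated regions, so reads from those parts of a transcript were not counted.

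**Figure D1:**
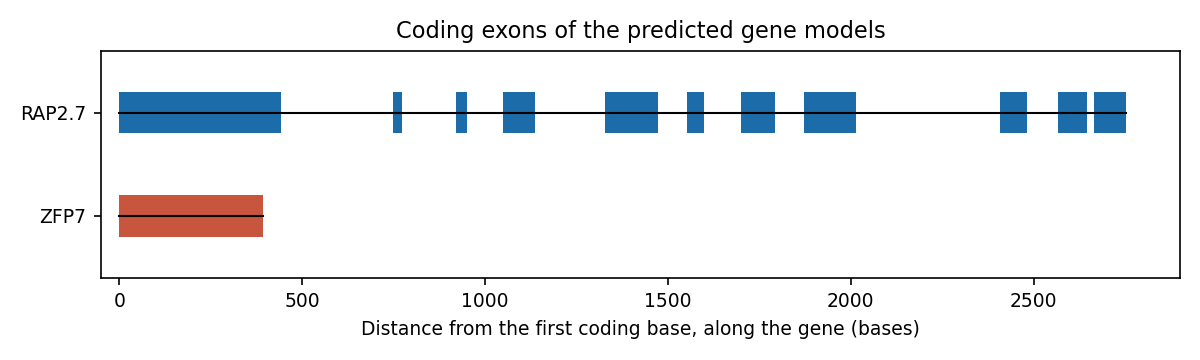
Coding exons (boxes) and the gaps between them (lines) in the predicted models of RAP2.7 and ZFP7, drawn to scale against the distance in bases from the first coding base. RAP2.7 has 11 exons over 2753 bases, whereas ZFP7 has 1 exon of 393 bases.

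The neighbouring genes were nearly silent. HW_425_g, the other gene on the contig of RAP2.7, had 0 counts in all 32 libraries, and its nearest exon is 1733 bases away. On the contig of ZFP7, HW_27791_g also had 0 counts throughout, whereas HW_27792_g reached at most 7 counts and was above 0 in 4 libraries. The nearest exon to ZFP7 is 3682 bases away. Whether the counting used strand is not given in the sources used here, but the genes next to RAP2.7 and ZFP7 contributed almost no reads of their own.

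At 1 HAT RAP2.7 had 0 counts in each of the 4 water libraries. After 2,4-D it had 45, 95, 131 and 60 counts, which is 2.73, 4.69, 4.94 and 4.65 CPM in replicates 1 to 4. After dicamba it had 194, 202, 172 and 51 counts (10.3, 10.9, 8.86 and 2.66 CPM). Dicamba replicate 4 was thus the lowest of the 12 herbicide libraries, while the other three dicamba libraries were the highest. Halauxifen-methyl gave 68, 90, 57 and 83 counts, or 5.49, 4.68, 3.23 and 3.87 CPM. No herbicide library overlapped with water.

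With the water libraries set to the limit of 3 counts each, mean RAP2.7 CPM at 1 HAT under 2,4-D was at least 18.6-fold higher. The same bound was at least 35.7-fold under dicamba and at least 18.9-fold under halauxifen-methyl. As background, 3.91% of tested genes were higher in every 2,4-D library than in every water library, 5.11% were so after dicamba and 1.96% after halauxifen-methyl. These shares are given only for orientation, since the genes were chosen on this contrast. The mean level of RAP2.7 was 4.25 ± 1.02 CPM with 2,4-D, 8.18 ± 3.78 with dicamba and 4.32 ± 0.982 with halauxifen-methyl (SD, n = 4). The ranges of 2,4-D and halauxifen-methyl overlapped, and that of dicamba overlapped with both because of its low library.

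ZFP7 had 2, 0, 0 and 0 counts in the water libraries at 1 HAT. After 2,4-D the counts were 90, 17, 43 and 72, which is 5.46, 0.839, 1.62 and 5.58 CPM. The 2,4-D libraries therefore fell into 2 higher ones, replicates 1 and 4, and 2 lower ones, and replicate 2 with 17 counts was the lowest value of either gene in any herbicide library. After dicamba ZFP7 had 408, 290, 153 and 143 counts (21.7, 15.6, 7.89 and 7.47 CPM). After halauxifen-methyl it had 89, 151, 234 and 105 counts (7.19, 7.85, 13.3 and 4.90 CPM). All 12 herbicide libraries were above the water libraries, the highest of which stood at 0.112 CPM.

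Mean ZFP7 CPM at 1 HAT was at least 14.7-fold higher under 2,4-D than the limit of 3 counts in water. The bound was at least 57.5-fold under dicamba and at least 36.2-fold under halauxifen-methyl. Its mean levels were 3.37 ± 2.497, 13.2 ± 6.80 and 8.30 ± 3.54 CPM in the same order (SD, n = 4). Every dicamba library exceeded every 2,4-D library for ZFP7, which was not so for RAP2.7. How many of all genes did so in this pair was not counted. Dicamba replicates 1 and 2 were the highest of their group for both genes, whereas 2,4-D replicates 2 and 3 were the highest for RAP2.7 and the lowest for ZFP7.

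**Figure D2:**
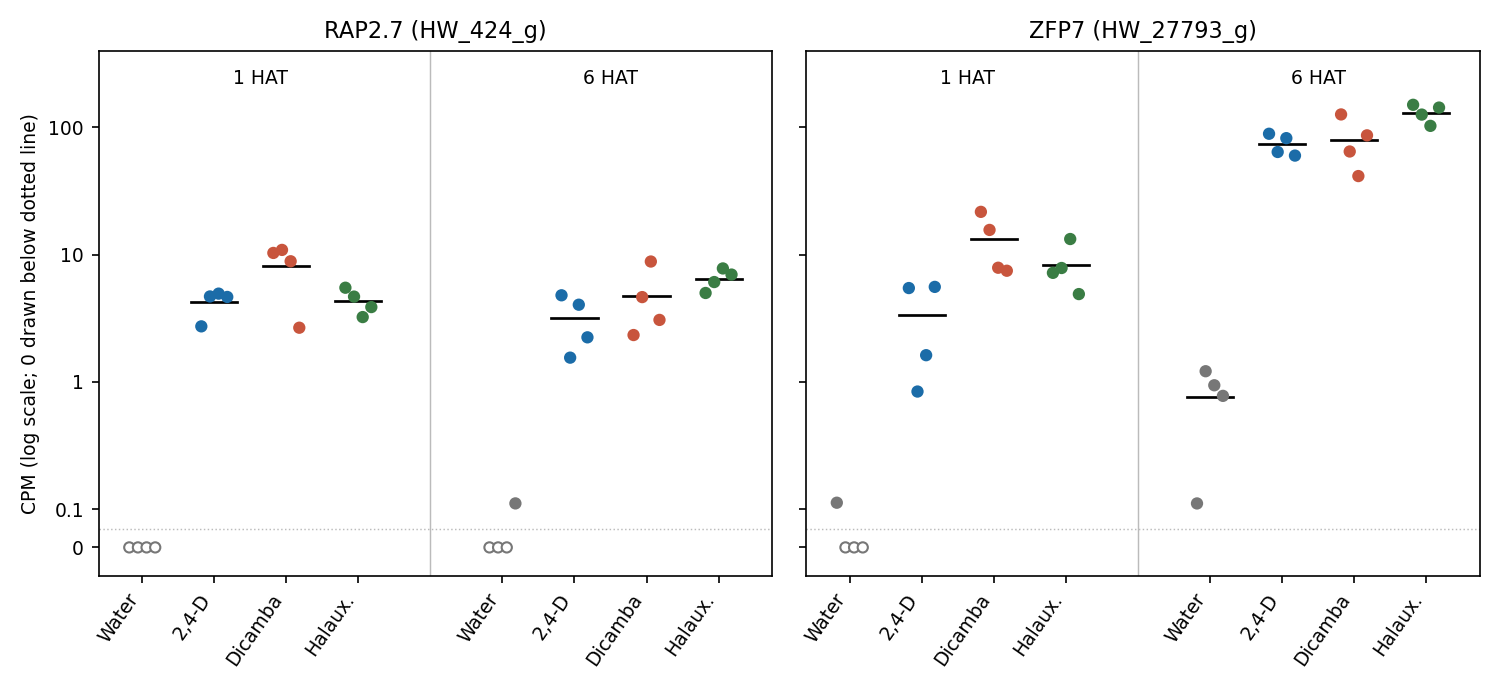
CPM of RAP2.7 and ZFP7 in each of the 32 libraries on a log axis, by treatment at 1 and 6 HAT; points are libraries (one plant each, replicates 1 to 4 from left to right), short lines are means of 4, and open points below the dotted line are libraries with 0 counts. At 6 HAT RAP2.7 stayed at 1.55 to 8.82 CPM after the herbicides, whereas ZFP7 reached 41.4 to 150.4 CPM and was also detected in all 4 water libraries.

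How sharply these genes stood apart at 1 HAT depends on where silence is drawn. Of the 54498 genes, 35526 had at most 3 counts in each water library at 1 HAT, and RAP2.7 and ZFP7 were the 2 of them with more than 3 counts in all 12 herbicide libraries. Their lowest herbicide counts were 45 and 17. Just outside, 3 of the genes silent in water exceeded 3 counts in 11 of the 12 herbicide libraries and had 0 in the other. They were WES1 (HW_7406_g, a GH3 enzyme that conjugates auxin), EXLB1 (HW_47337_g, an expansin-like protein) and RRP41 (HW_45447_g, an exosome subunit), with highest counts of 216, 172 and 54. A further 4 genes did so in 10 libraries, each with a lowest count of 0. With a limit of 1 count in place of 3, RAP2.7 alone remained, because ZFP7 had 2 counts in water replicate 1.

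At 6 HAT RAP2.7 was still near 0 in water and still present after each herbicide. Water libraries had 0, 0, 0 and 2 counts, the last being 0.111 CPM. The 2,4-D libraries had 84, 36, 73 and 42 counts (4.79, 1.55, 4.04 and 2.24 CPM), and the dicamba libraries 46, 102, 157 and 71 counts (2.33, 4.64, 8.82 and 3.07 CPM). Dicamba replicate 3 was the highest of all herbicide libraries at this time. After halauxifen-methyl there were 114, 159, 112 and 141 counts (4.99, 6.09, 7.79 and 6.97 CPM), a narrower spread than after dicamba. No herbicide library overlapped with water.

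RAP2.7 rose against water at 6 HAT after all 3 herbicides in the quasi-likelihood test of edgeR, p being adjusted by Benjamini-Hochberg over all tested genes. With 2,4-D its level was at least 18.4-fold higher (adjusted p = 0.00279), with dicamba at least 27.5-fold (adjusted p = 0.00361) and with halauxifen-methyl at least 37.7-fold (adjusted p = 0.000742), with 4 of 4 libraries above all water libraries in each case. Groups that did not overlap, with the herbicide higher, were seen in 14.1%, 9.69% and 13.9% of tested genes in these comparisons. Among all tested genes, 10.3%, 5.64% and 8.55% were called higher with 2,4-D, dicamba and halauxifen-methyl, so a call at 6 HAT was much more common than at 1 HAT, where 0.898%, 1.23% and 0.176% were called higher. The 3 comparisons share the same 4 water libraries and are not independent of one another. The fitted log2 fold changes of RAP2.7 rest on the 2 counts in water replicate 4. Without that library they were 8.86, 9.50 and 9.96 for 2,4-D, dicamba and halauxifen-methyl, and the dicamba value was 7.10 with all libraries and 6.63 without dicamba replicate 3. The calls held in each of these fits.

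ZFP7 was no longer silent in water at 6 HAT, with 2, 22, 15 and 14 counts (0.111, 1.21, 0.940 and 0.776 CPM). Replicate 1 alone stayed at the level seen at 1 HAT. After 2,4-D the gene had 1562, 1488, 1487 and 1126 counts (89.1, 64.1, 82.3 and 60.0 CPM), and after dicamba 2491, 1422, 737 and 2003 counts (126, 64.6, 41.4 and 86.5 CPM). Dicamba replicate 3, the highest for RAP2.7, was the lowest for ZFP7. Halauxifen-methyl gave 3434, 3292, 1478 and 2895 counts (150.4, 126, 103 and 143 CPM). The lowest herbicide library, at 41.4 CPM, was well above the highest water library at 1.21 CPM.

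The increase of ZFP7 against water at 6 HAT was a log2 fold change of 6.61 after 2,4-D (SE 0.41, adjusted p = 1.22e-06), 6.73 after dicamba (SE 0.56, adjusted p = 3.59e-05) and 7.41 after halauxifen-methyl (SE 0.46, adjusted p = 1.85e-05) by the same edgeR test. As ratios of mean CPM these are 97.2-, 105- and 172-fold. By fitted log2 fold change ZFP7 ranked 68th of 1471 genes called higher after 2,4-D, 30th of 813 after dicamba and 37th of 1242 after halauxifen-methyl. RAP2.7 ranked 72nd, 23rd and 33rd, but the fitted fold of a gene near 0 in water depends on the prior count and, here, on 2 counts in 1 water library, so these ranks are not firm. In bulk leaf RNA, fewer cells that express a gene and less RNA per cell cannot be told apart, and the same holds for more.

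Leaf marker RNA moved at the same time. Of the 14 leaf marker genes tested at 1 HAT, 0 were called in any comparison with water by edgeR, its exact test or DESeq2, and 1 passed an unadjusted p of 0.05, higher after dicamba. At 6 HAT 10 of 13 were lower after 2,4-D, 10 of 13 after dicamba and 11 of 13 after halauxifen-methyl, with median log2 fold changes of -1.39, -1.41 and -1.73 against 0.02, 0.06 and 0.05 over all tested genes. Over all tested genes 9.41%, 3.96% and 6.13% were called lower in these comparisons. Their summed level was 56476 to 99234 CPM in water at 6 HAT, 29325 to 44674 after 2,4-D, 24323 to 33361 after dicamba and 14394 to 36316 after halauxifen-methyl. The part of this fall in the CPM of RAP2.7 and ZFP7 at 6 HAT was not tested. At 1 HAT, where both genes were already present, the sums after herbicides (60995 to 169581 CPM) overlapped with those in water (93408 to 140009 CPM).

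The 3 herbicides were also compared with each other at 6 HAT, in 3 pairs for each gene and with p adjusted over all genes tested in a pair. For ZFP7, 2,4-D was below halauxifen-methyl by a log2 difference of -0.82 (SE 0.18, 2 SE either side -1.18 to -0.47, edgeR adjusted p = 0.0181), and all 4 halauxifen-methyl libraries exceeded all 4 2,4-D libraries. Of the 14622 genes tested in this pair, 5.07% were called lower after 2,4-D, 8.86% were lower without overlap and 8.04% were called in either direction. The call did not hold without 2,4-D replicate 2 (edgeR adjusted p = 0.0806), 2,4-D replicate 4 (0.0592) or halauxifen-methyl replicate 1 (0.0669), nor with all 32 libraries in one fit (0.504). Dicamba against halauxifen-methyl gave -0.68 for ZFP7 (SE 0.30, -1.29 to -0.07, edgeR adjusted p = 0.534) in a pair with 0.489% of genes called. 2,4-D against dicamba gave -0.13 (SE 0.29, -0.71 to 0.45, edgeR adjusted p = 0.956), a pair in which 0.519% of genes were called, and this sign turned to 0.18 without dicamba replicate 1. Without dicamba replicate 3, dicamba against halauxifen-methyl was -0.46 and 2,4-D against dicamba -0.34.

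For RAP2.7 none of the 3 pairs passed the threshold at 6 HAT in edgeR's test. The log2 difference was -1.04 for 2,4-D against halauxifen-methyl (SE 0.38, 2 SE either side -1.80 to -0.27, edgeR adjusted p = 0.145, unadjusted 0.0210), with all 2,4-D libraries below all halauxifen-methyl libraries. Dicamba against halauxifen-methyl gave -0.41 (SE 0.44, -1.29 to 0.46, edgeR adjusted p = 0.877), and 2,4-D against dicamba -0.60 (SE 0.52, -1.64 to 0.45, edgeR adjusted p = 0.855). Without dicamba replicate 3 they were -0.90 and -0.12. The intervals are wide enough to leave room for differences of more than 1 log2 unit in every pair. Halauxifen-methyl had the highest mean of both genes at 6 HAT, at 6.46 ± 1.20 CPM for RAP2.7 and 131 ± 21.2 CPM for ZFP7 (SD, n = 4). At 1 HAT dicamba had it.

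Between 1 and 6 HAT the genes parted. Mean ZFP7 was 21.9 times as high at 6 as at 1 HAT after 2,4-D, 6.06 times after dicamba and 15.7 times after halauxifen-methyl, and no library of 6 HAT overlapped with one of 1 HAT of the same herbicide. RAP2.7 gave ratios of 0.742, 0.576 and 1.50, and its libraries of both times overlapped after every herbicide. Different plants were sampled at each time, and the 1 HAT values served to choose the genes, so these ratios were not tested. How many of all genes parted between the times in this way was not counted. In water mean ZFP7 also went up, from 0.0281 CPM at 1 HAT to 0.760 CPM at 6 HAT. That ratio of 27.1 was as large as those after the herbicides, but it starts from 2 counts in 1 library. The water libraries of both times overlapped through replicate 1 of each.

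Ordered by mean level, ZFP7 ran from halauxifen-methyl (131 CPM), dicamba (79.7) and 2,4-D (73.8) at 6 HAT through dicamba (13.2), halauxifen-methyl (8.30) and 2,4-D (3.37) at 1 HAT down to water at 6 HAT (0.760) and 1 HAT (0.0281). The ranges of neighbours in this order overlapped except at the step from 2,4-D at 6 HAT to dicamba at 1 HAT. Even 2,4-D at 1 HAT, with a lowest library of 0.839 CPM, overlapped with water at 6 HAT, whose highest library was 1.21 CPM. The order of RAP2.7 mixed the times, from dicamba at 1 HAT (8.18 CPM) through halauxifen-methyl (6.46) and dicamba (4.71) at 6 HAT, halauxifen-methyl (4.32) and 2,4-D (4.25) at 1 HAT to 2,4-D at 6 HAT (3.15) and water (0.0277 at 6 HAT and 0 at 1 HAT). All neighbouring herbicide groups of RAP2.7 overlapped, and the clear step in its order was the one down to water.

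Levels of the genes can be compared per length of coding sequence. In CPM per kb, RAP2.7 had group means of 2.52 to 6.52 after the herbicides, and ZFP7 8.58 to 33.5 at 1 HAT and 188 to 332 at 6 HAT. The ratio of ZFP7 to RAP2.7 per kb within a library had a median of 4.38 over the 12 herbicide libraries of 1 HAT (0.571 to 13.1) and of 65.8 over those of 6 HAT (15.0 to 173). ZFP7 was below RAP2.7 per kb in 2,4-D 1 HAT replicate 2 and in no other herbicide library. Among the genes with a count in a group, the mean CPM per kb of RAP2.7 stood at the 49.5th to 59.8th percentile after herbicides, and that of ZFP7 at the 64.6th to 83.0th at 1 HAT and the 96.2nd to 97.9th at 6 HAT. RAP2.7 was thus a transcript of middling level, and ZFP7 at 6 HAT one of the upper few percent.

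**Figure D3:**
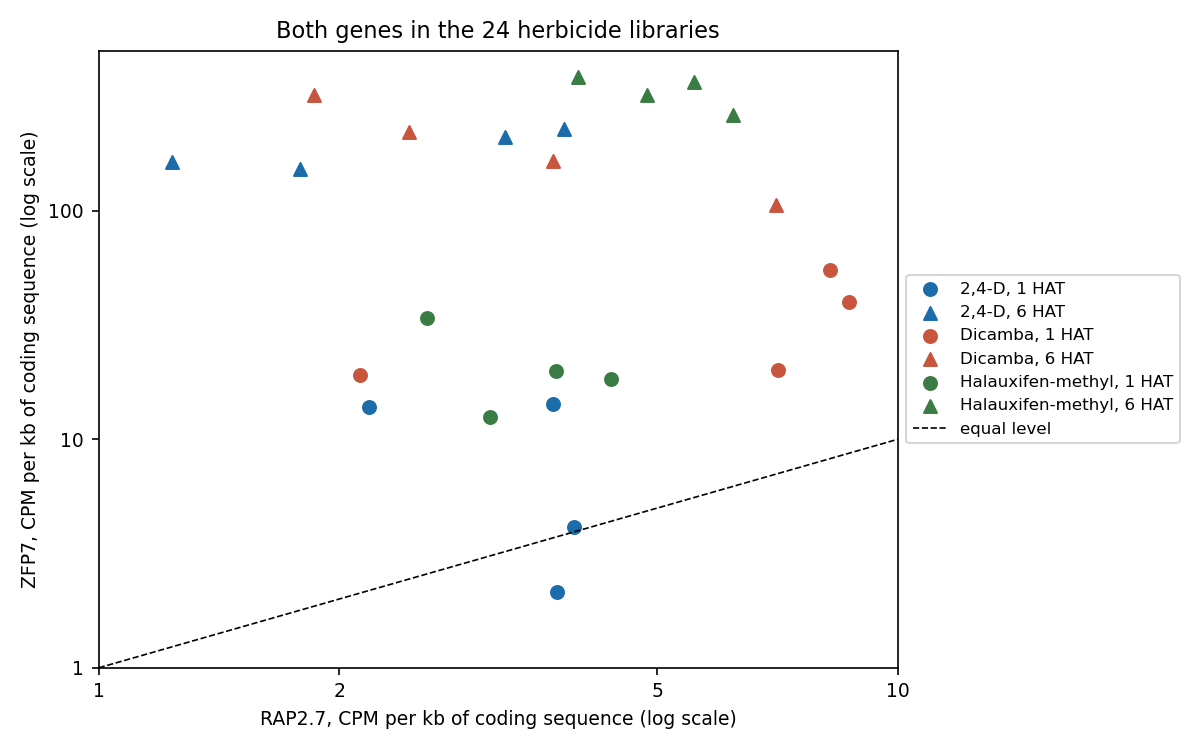
Level of ZFP7 against that of RAP2.7 in the 24 herbicide libraries, both in CPM per kb of coding sequence on log axes of different span; circles are 1 HAT, triangles 6 HAT, and the dashed line marks equal levels. The triangles lie above all circles while both cover a similar range of RAP2.7, and one 2,4-D library of 1 HAT lies below the line.

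Within the herbicide libraries of one time the genes varied with little relation. On log2(CPM + 0.25), Pearson's r between RAP2.7 and ZFP7 was 0.75 over all 32 libraries, 0.36 over the 12 herbicide libraries of 1 HAT and 0.14 over those of 6 HAT. These values describe libraries that share treatments, and the first value also spans the gap between water and herbicide.

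The genes whose pattern was most like that of RAP2.7 over the 32 libraries were the F-box gene AT2G32560 (HW_26435_g, r = 0.91), the SAUR-like genes HW_748_g (0.90) and HW_5327_g (0.88), both with the best hit AT4G38840, the NPH3 family gene AT1G67900 (HW_12722_g, 0.88) and AT1G69160 (HW_19198_g, 0.87). All 5 were well expressed in water, with mean levels of 11.9 CPM or more at 1 HAT, so the likeness to RAP2.7 lay in the rise and not in the silence. Those most like ZFP7 were AT5G62280 (HW_13374_g, a DUF1442 protein, r = 0.96), *DFL1* (HW_43852_g, a GH3 enzyme that conjugates auxin, 0.95), AT5G52020 (HW_25348_g, an AP2/ERF-type DNA-binding protein, 0.95), *IAA29* (HW_50873_g, an AUX/IAA repressor, 0.94) and *BRH1* (HW_48496_g, a RING-H2 protein, 0.94). *DFL1* and AT5G52020 too were low in water and higher after herbicides. The means of *DFL1* were 0.369 and 0.567 CPM in water at 1 and 6 HAT, and 5.98 and 164 CPM after herbicides. Those of AT5G52020 were 0.196 and 0.787 CPM in water and 3.71 and 24.3 CPM after herbicides, in the same order. Over the 16 libraries of 6 HAT alone, 0 of these 5 genes stayed among the top 5 of either RAP2.7 or ZFP7.

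RAP2.7 was not the only horseweed gene with that best hit. HW_19252_g, HW_21475_g and HW_25753_g also hit RAP2.7 first, with 9, 10 and 7 coding exons and 1356, 1335 and 1278 coding bases, whereas HW_27793_g was the sole gene that hit ZFP7. How reads shared by such related genes were assigned is not given in the sources used here, so counts of near-identical stretches are uncertain. The 4 genes nevertheless differed in their counts from group to group, and none of the other three was silent in water.

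HW_424_g was higher after herbicides at both times, whereas HW_21475_g was lower than water at 6 HAT. Water libraries had 16.5 to 23.2 CPM, against 2.28 to 4.87 with 2,4-D, 2.03 to 9.67 with dicamba and 0.741 to 5.70 with halauxifen-methyl. Its log2 fold changes were -2.60 (SE 0.31, edgeR adjusted p = 0.000118), -1.74 (SE 0.42, 0.0232) and -2.47 (SE 0.50, 0.00832). Of all genes tested in these comparisons, 9.41%, 3.96% and 6.13% were called lower. The dicamba call was lost without dicamba replicate 2 or 4 or water replicate 3, with adjusted p up to 0.0740, and with the replicate number as a block (0.0518). Without dicamba replicate 3 the dicamba change was -2.06. At 1 HAT the changes of HW_21475_g were 0.26, 0.84 and 1.00 with edgeR adjusted p of 0.852, 0.272 and 1.00.

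HW_25753_g changed at the other time. At 1 HAT it stood at 47.5 to 107 CPM in water and at 7.50 to 22.8 after 2,4-D, 9.07 to 24.3 after dicamba and 25.3 to 61.7 after halauxifen-methyl. It fell by 2.18 on the log2 scale after 2,4-D (SE 0.36, edgeR adjusted p = 0.0132) and by 2.11 after dicamba (SE 0.34, 0.00718), and its change of -0.74 after halauxifen-methyl did not pass (SE 0.34, 1.00). Of all genes tested at 1 HAT, 0.919% were called lower after 2,4-D and 1.19% after dicamba. Without 2,4-D replicate 1 the 2,4-D call was lost (adjusted p = 0.0510). At 6 HAT the water level was itself low, at 8.20 ± 1.72 CPM (SD, n = 4), and no comparison was called. Dicamba 6 HAT replicate 3 had 56.0 CPM of HW_25753_g against 4.67 to 11.2 in the other dicamba libraries, and the log2 change after dicamba went from 1.25 to -0.10 without it.

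HW_19252_g was counted at most 36 times in a library. At 6 HAT it had 1 to 19 counts in water, 0 in all 4 libraries after 2,4-D and in 3 of 4 after each other herbicide, and it was below the filter on low counts in these comparisons. At 1 HAT it had 0.787 CPM in water and 0.590 to 0.672 after the herbicides on average, with overlapping libraries. When the effects at 6 and 1 HAT were compared as an interaction, 5 of 9 tests over the other 3 genes were called, 2 each for 2,4-D and dicamba and 1 for halauxifen-methyl, against 9.50%, 5.17% and 5.49% of all genes. HW_424_g was the one gene of the 4 that was called higher after herbicides at 6 HAT.

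**Figure D4:**
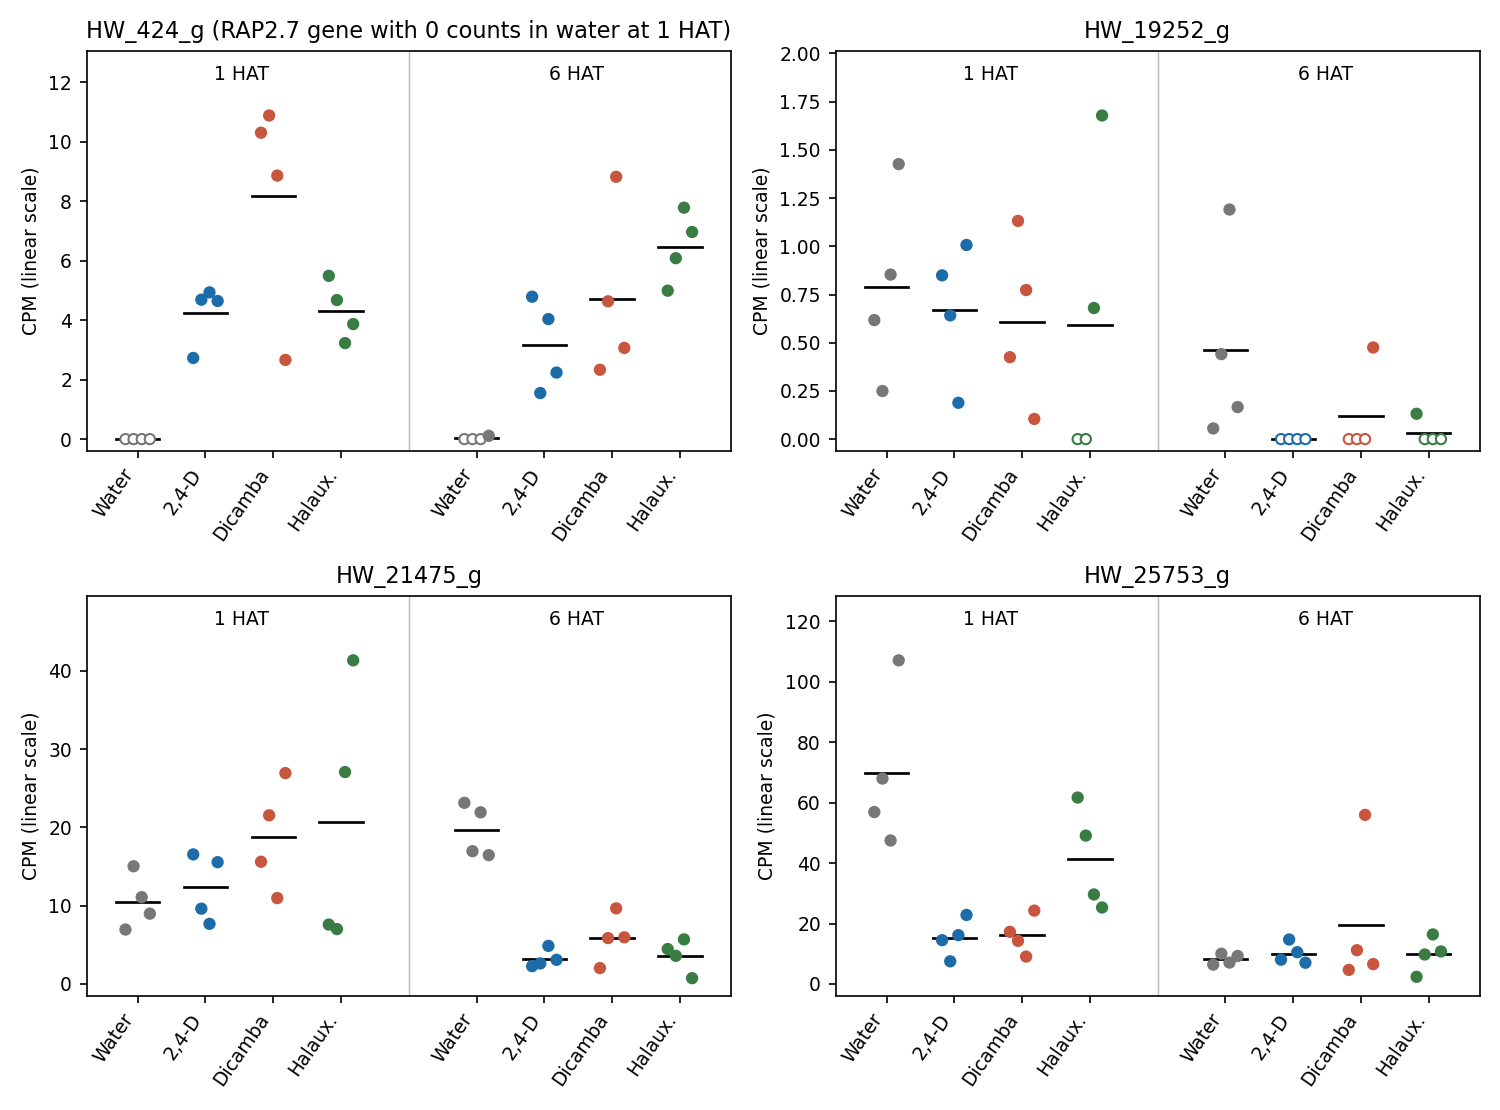
CPM on linear axes of the 4 genes whose best hit is RAP2.7, by treatment at 1 and 6 HAT, each panel with its own scale; points are libraries (open where 0 counts) and short lines are means of 4. HW_424_g was near 0 in water at both times, HW_21475_g was lower after herbicides at 6 HAT, and HW_25753_g was highest in water at 1 HAT, with 1 high dicamba library of 56.0 CPM at 6 HAT.

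The wider euAP2 class held 6 other genes, with hits to AP2, TOE2 and RAP2.7, and 0 of the 3 or 4 tested were called higher in any of the 6 comparisons with water by edgeR or DESeq2. At an unadjusted p of 0.05, 1 was higher, HW_21475_g after dicamba at 1 HAT. Over all tested genes 10.3%, 5.64% and 8.55% were called higher at 6 HAT, so 0 of so few does not set the class apart. Their median log2 fold changes at 6 HAT were -0.45, -0.08 and -0.53 after 2,4-D, dicamba and halauxifen-methyl, against 0.02, 0.06 and 0.05 over all tested genes. Besides the genes above, *TOE2* (HW_35725_g), a flowering repressor in *A. thaliana*, fell after 2,4-D at 1 HAT by 1.14 on the log2 scale (edgeR adjusted p = 0.0394), from 79.2 ± 14.7 to 35.5 ± 11.5 CPM (SD, n = 4). With dicamba it stood lower still at 1 HAT, at 32.4 ± 13.5 CPM (log2 fold change -1.29, edgeR adjusted p = 0.0531), and with halauxifen-methyl at 56.7 ± 13.5 CPM (-0.47, 1.00). At 6 HAT it fell after 2,4-D by 0.45 (edgeR adjusted p = 0.0357), and its values after dicamba and halauxifen-methyl were -0.08 and -0.53 (0.951 and 0.181). Without dicamba 6 HAT replicate 3 the dicamba value of *TOE2* was -0.73 (edgeR adjusted p = 0.0348). The 2,4-D calls were lost in 7 of 8 fits at 1 HAT and 6 of 8 at 6 HAT that left out a single library, with adjusted p up to 0.142 and 0.114, with the block (0.111 and 0.0682) and with all 32 libraries in one fit (0.0889 and 0.481). Of 16 genes with hits to the other factors with a pair of AP2 domains, 4 to 6 were tested per comparison, with medians at 6 HAT of -0.74, -0.08 and -0.10. *ANT* (HW_6485_g), a growth regulator of young organs, was called once, lower after 2,4-D at 6 HAT (log2 fold change -2.99, edgeR adjusted p = 0.0324), and the call was lost in 5 of 8 fits without a single library (adjusted p up to 0.0750) and with the block (0.0723).

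The few relatives of ZFP7 that could be tested gave no rise like its own. Of the 24 other genes with hits to single-finger C2H2 factors, 14 had 0 counts in all 32 libraries, and 3 were tested in each comparison. Of these, 0 were called higher by edgeR or DESeq2, and 0 were higher at an unadjusted p of 0.05. Over all tested genes 10.3%, 5.64% and 8.55% were called higher at 6 HAT, so 0 of 3 does not set the list apart. Their median log2 fold changes at 6 HAT were 0.03, -0.14 and -0.21. *ZFP1* (HW_45617_g), a factor named for its finger like ZFP7, went the opposite way at 6 HAT, with 3.77 to 9.65 CPM in water and 0 counts in all 4 libraries after 2,4-D, which is at least 47.3-fold lower (edgeR adjusted p = 0.000148). After halauxifen-methyl *ZFP1* had 0 counts in 3 libraries and 6 in the other (edgeR adjusted p = 0.00366), and after dicamba it averaged 0.607 ± 0.885 CPM (SD, n = 4, log2 fold change -3.55, edgeR adjusted p = 0.0768). The dicamba value was called lower by DESeq2 (0.00382), the exact test (0.0183), without a low-count filter (0.0272) and with all 32 libraries in one fit (0.0431). Without dicamba replicate 2 the change of *ZFP1* was -5.37 (edgeR adjusted p = 0.0123).

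Of 4 genes with hits to zinc finger factors that carry a pair of fingers, 3 were tested at each time. *ZAT10* (HW_2433_g), a stress-induced repressor also known as STZ, was higher than water at 6 HAT after every herbicide. The log2 fold changes were 4.86 (SE 0.26, edgeR adjusted p = 3.62e-07), 3.21 (SE 0.40, 0.000389) and 4.10 (SE 0.45, 0.000272). Its water libraries had 1.25 to 2.49 CPM at 6 HAT, below those of 1 HAT (8.42 to 17.0 CPM). After 2,4-D, dicamba and halauxifen-methyl it had 53.4 ± 9.34, 16.9 ± 4.13 and 32.3 ± 18.6 CPM at 6 HAT (SD, n = 4). The dicamba libraries of 6 HAT (11.5 to 21.4 CPM) overlapped with water at 1 HAT. At 1 HAT *ZAT10* was higher than water after 2,4-D, at 35.6 to 65.7 CPM (log2 fold change 1.96, edgeR adjusted p = 0.00778). After dicamba and halauxifen-methyl it had 14.9 ± 5.40 and 14.5 ± 1.17 CPM (SD, n = 4) and was not called. It thus lacked the silence in water that marked ZFP7. The other members tested did not follow *ZAT10*. HW_35396_g, which also hits *ZAT10*, gave log2 changes of -1.50, -0.42 and 1.00 at 6 HAT and *ZAT5* (HW_50535_g) gave -0.63, -1.16 and -0.98, with no call, and the list medians were -0.63, -0.42 and 1.00.

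**Figure D5:**
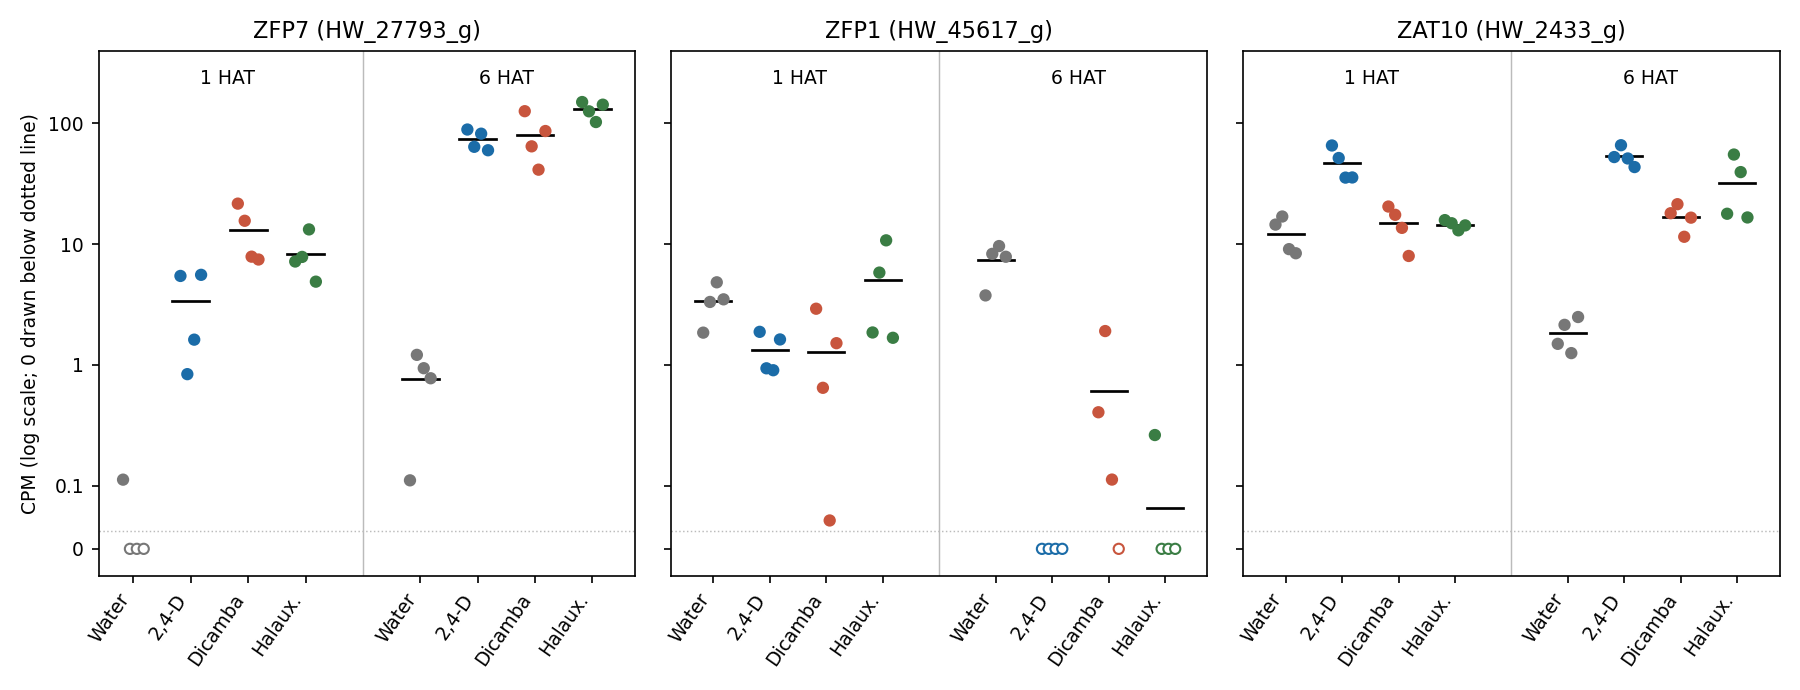
CPM of the zinc finger genes ZFP7, ZFP1 and ZAT10 on a log axis, by treatment at 1 and 6 HAT; points are libraries, short lines means of 4, and open points below the dotted line libraries with 0 counts. At 6 HAT ZFP7 and ZAT10 were higher after each herbicide than in water, while ZFP1 fell to 0 counts in all 4 libraries after 2,4-D.

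TOPLESS corepressors, which euAP2 factors recruit in *A. thaliana*, were represented by 13 genes, and each comparison tested 8 or 9 of them. At 1 HAT 0 were called by edgeR's quasi-likelihood test, while its exact test and DESeq2 each called 1, lower after dicamba. At an unadjusted p of 0.05, 1 was higher after 2,4-D, and 1 was higher and 2 were lower after dicamba. The medians of their log2 fold changes at 1 HAT were -0.35, 0.09 and -0.10, against 0.03, 0.00 and 0.00 over all tested genes. At 6 HAT 3 of 9 rose after 2,4-D, 1 of 9 after dicamba and 2 of 9 after halauxifen-methyl, with medians of 0.84, 0.41 and 1.00. The shares called higher over all tested genes were 10.3%, 5.64% and 8.55%. With 9 genes tested, each count lay within a few genes of its background, and none was tested against it. *TPL* (HW_46581_g) rose in each, by 1.49, 1.54 and 1.21 on the log2 scale (edgeR adjusted p = 2.62e-05, 0.000459 and 0.000844), from 21.2 ± 2.61 CPM in water to 59.1 ± 5.38, 61.0 ± 10.7 and 49.4 ± 5.74 CPM (SD, n = 4). A further *TPL* gene (HW_51268_g) rose by 0.84 after 2,4-D and by 1.05 after halauxifen-methyl (edgeR adjusted p = 0.0157 and 0.0174), and the former was lost without 2,4-D replicate 1 (0.0538), with the block (0.0648) and with all 32 libraries in one fit (0.0681). *TPR4* (HW_22951_g) rose by 0.93 after 2,4-D (edgeR adjusted p = 0.000486).

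Flowering time is the setting in which RAP2.7 is known from *A. thaliana*. Of 17 genes with such hits, 10 or 11 were tested per comparison, and at 6 HAT 2 were higher and 1 lower after 2,4-D, 1 was higher after dicamba and 0 were called after halauxifen-methyl, where DESeq2 called 1 and 1 gene in each direction passed an unadjusted p of 0.05. Beside 10.3% called higher and 9.41% lower of all genes after 2,4-D, and 5.64% and 3.96% after dicamba, these counts do not set the list apart. Its medians at 6 HAT were -0.20, 0.38 and 0.11. *GI* (HW_47284_g), a clock-linked activator of flowering, rose by 0.58 and 0.55 on the log2 scale after 2,4-D and dicamba (edgeR adjusted p = 0.00311 and 0.0438). Of the genes that hit *SVP*, a MADS-box repressor of flowering, HW_10974_g rose by 0.67 and HW_21305_g fell by 0.92 after 2,4-D (edgeR adjusted p = 0.0282 and 0.0108). The calls of *GI* after dicamba and of HW_10974_g were lost in 7 and 6 of 8 fits without a single library, with adjusted p up to 0.140 and 0.0767, and with the block (0.124 and 0.0511). With all 32 libraries in one fit none of the 4 calls held, including *GI* after 2,4-D (0.0735) and HW_21305_g (0.0507). At 1 HAT *SPL4* (HW_2663_g), which promotes flowering, was the 1 gene called, higher after 2,4-D by 1.87 (edgeR adjusted p = 0.0267), and it is named here after its value was seen.

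The summed level of the floral marker hits moved with the herbicides at 6 HAT, from 3.82-7.77 CPM in water to 29.9-51.1 CPM (2,4-D), 21.2-46.1 CPM (dicamba) and 11.1-27.2 CPM (halauxifen-methyl), and after the herbicides most of it came from one gene. HW_23618_g, a MADS-box gene whose best hit is the petal and stamen gene *AP3*, rose at 6 HAT after 2,4-D and dicamba by 3.85 and 3.60 on the log2 scale (edgeR adjusted p = 0.000422 and 0.00310). Its value after halauxifen-methyl was 2.17 (0.0581), which DESeq2 (0.00790) and the exact test (0.0160) called higher. The level of HW_23618_g, named *AP3* by its hit, was at 6 HAT 2.32 ± 1.68 CPM in water, 33.4 ± 7.80 with 2,4-D, 28.0 ± 8.38 with dicamba and 10.5 ± 4.34 with halauxifen-methyl (SD, n = 4). A *FUL* gene (HW_19015_g) gave log2 changes of 1.97 to 2.41 at 6 HAT without a call (edgeR adjusted p = 0.169 to 0.275). The meristem identity hits *AP1*, *LFY* and *WUS* reached at most 28, 12 and 8 counts in any library, whereas one *CLV1* hit (HW_32274_g) reached 1240. The summed shoot meristem hits ran from 0 to 46.8 CPM at 1 HAT and from 0 to 4.11 CPM at 6 HAT, and the groups overlapped at both times. The part of floral or meristem cells in the result was not tested.

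Genes that were silent in water were more numerous at 6 HAT. Of the 36178 genes with at most 3 counts in each water library at that time, 25 had more than 3 counts in all 12 herbicide libraries, against 2 of 35526 at 1 HAT. RAP2.7 was one of the 25 and the 10th by mean CPM, at 4.78 CPM over the 12 libraries. ZFP7 was left out by its own counts in water. The highest of the 25 were *TT4* (HW_45806_g, chalcone synthase, the entry enzyme of flavonoid synthesis) at 55.3 CPM, *CYP94C1* (HW_17233_g, a cytochrome P450 that oxidises jasmonoyl-isoleucine) at 32.8 CPM and AT5G38200 (HW_21402_g, a glutamine amidotransferase-like protein) at 28.9 CPM, which were picked out after their values were seen. The count of 25 became 39 without water 6 HAT replicate 2 and 38 without dicamba 6 HAT replicate 2.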

How the data were processed

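Leaf RNA of 32 plants was measured by RNA-seq. The authors checked the reads with FastQC 0.11.2, trimmed them, mapped them to a draft genome of the species with STAR 2.5.2b, and counted them with HTSeq 0.6.1 on GeneMark gene models named by their best *A. thaliana* protein hit; the counting mode and strand setting are not given in the sources used here. The authors deposited these counts for each gene unnormalized. The other tools in the submitters' processing notes (edgeR, DESeq2, Cufflinks) served tests that were not used here.

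Groups came from the sample labels. CPM were computed on the TMM scale of all 32 libraries with edgeR 4.0.16 (R 4.3.3). Each comparison was a separate fit of 8 libraries, after a low-count filter (filterByExpr, minimum count 10), with the quasi-likelihood test and Benjamini-Hochberg adjustment over all genes tested at a threshold of 0.05. A fold against a group with at most 3 counts in every library used 3 counts per library as a lower bound. Likeness of pattern was Pearson's r on log2(CPM + 0.25) over 32 libraries, with the 5 closest genes named. Named genes were RAP2.7 and ZFP7, genes with the same best hit, contig neighbours, those closest genes and listed genes called at 6 HAT. Also named were genes silent in water and counted in all or most herbicide libraries. Some listed genes without a call at 6 HAT, such as *FUL*, *ZAT5* and *SPL4*, were named as well. The genes and lists were chosen with earlier results of these data known. Each library came from a separate plant, and counts of libraries of a group differed by more than sampling noise, with a chi-square of 21.3 to 283 times its degrees of freedom over 48 pairs. Sequencing runs are not named, so a batch shared by a group cannot be told apart from its treatment. The test was tried on simulated data. DESeq2 1.42.0 was used for alternatives only. Figures were drawn with matplotlib 3.10.9.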

Additional observations from a re-analysis of the deposited data

Results flagged for a closer look

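Among the 40 groups of 4 libraries checked for RAP2.7, ZFP7 and the other genes with RAP2.7 as best hit, 6 had a library far from the other three. Where the other libraries are at 0, any count is flagged. The rate of about 5% of groups flagged by chance does not apply there. RAP2.7 was 2.73 CPM in 2,4-D 1 HAT replicate 1, below the next library at 4.65 CPM, and 0.111 CPM in water 6 HAT replicate 4, where the others had 0. ZFP7 was 0.112 CPM in water 1 HAT replicate 1, where the others had 0. HW_19252_g was 0.475 CPM in dicamba 6 HAT replicate 4 and 0.131 CPM in halauxifen-methyl 6 HAT replicate 1, again beside libraries at 0. HW_25753_g was 56.0 CPM in dicamba 6 HAT replicate 3, against 11.2 CPM in the next library. The values at 0.111, 0.112 and 0.131 CPM rest on 2 or 3 counts.

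The effect of a herbicide against water differed between 6 and 1 HAT in 5 of 9 tests over the other 3 genes with RAP2.7 as best hit, made as an interaction in 16 libraries with edgeR's quasi-likelihood test. In the same tests 9.50% of all genes were called for 2,4-D, 5.17% for dicamba and 5.49% for halauxifen-methyl. For HW_21475_g the log2 effect at 6 HAT minus that at 1 HAT was -2.84 for 2,4-D (adjusted p = 0.000751), -2.57 for dicamba (0.00931) and -3.46 for halauxifen-methyl (0.0138). For HW_25753_g it was 2.51 for 2,4-D (adjusted p = 0.00164), 3.36 for dicamba (0.0160) and 0.98 for halauxifen-methyl (0.472). The dicamba value of HW_25753_g was 2.01 without dicamba 6 HAT replicate 3 (adjusted p = 0.0160). The 5 calls held with each library left out in turn, an alternative chosen after seeing the data. HW_19252_g was not called, with adjusted p of 0.0593, 0.856 and 0.556, although its 2,4-D value of -5.79 became -6.16 without water 6 HAT replicate 1 (0.0372). The interactions of a herbicide share its water libraries between genes.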

How the results depend on the processing

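The calls of RAP2.7 and ZFP7 against water at 6 HAT held under all 14 alternatives that gave a value, with adjusted p up to 0.0263 for RAP2.7 and 0.000684 for ZFP7. These were the Wald test of DESeq2, the exact test of edgeR, DESeq2 size factors, no low-count filter, all 32 libraries in one fit, the replicate block, and each library left out. A filter of at least 10 counts in every library gave no value for them. Their group means with DESeq2 size factors or total counts moved by less than 1 SD. For ZFP7, 2,4-D against halauxifen-methyl was -0.81 with all 32 libraries in one fit (adjusted p = 0.504) and -0.93 to -0.70 with single libraries left out, and 2,4-D against dicamba ran from -0.34 to 0.18. Of the 5 genes most like RAP2.7, 1 remained by Spearman correlation and 0 over the libraries of 6 HAT, and of those most like ZFP7 3 and 0. Among genes named once, HW_25753_g ran from -0.10 to 1.57 after dicamba and from -0.11 to 0.58 after halauxifen-methyl at 6 HAT with single libraries left out, TOE2 (HW_35725_g) from -0.73 to 0.14 after dicamba, and HW_10974_g from -0.0571 to 0.28 after halauxifen-methyl. The causes were not tested.

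Same-numbered libraries correlated at -0.28 to 0.37, and in 0 of 9 comparisons was every pair above 0.1. So few pairs cannot show whether replicate numbers mark a shared block. The main fits had no block, and a block was tried as an alternative. With the replicate block, ZFP7 in 2,4-D against halauxifen-methyl was -0.82 (adjusted p = 0.0687), and HW_25753_g after halauxifen-methyl at 6 HAT was -0.0026. The block gave 1121, 605 and 885 genes higher at 6 HAT, against 1471, 813 and 1242 without it. Depth limits what can be said of genes at 0 counts in water, whose folds are lower bounds.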
